A study of Mus musculus with 23 samples.

Results

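Genes of the primary cilium and of intraflagellar transport were followed across mouse medulloblastoma models, granule neuron precursors (GNPs) and adult cerebellum. Subunits, motors, gatekeepers and signalling partners of the cilium were listed by name, 45 in all, and 42 of the 45 had a probe set annotated to that gene alone. These 42 are reported here out of 18194 genes measured, and Arl6, Arl13b and Rpgrip1l were not analysed here. A gene with several probe sets was represented by the one with the highest mean over the 23 arrays. The members fall into 7 roles, namely IFT-B (11 members), IFT-A (3), ciliary motors (5), the BBSome with its assembly factor (8), ciliary membrane and GTPase cycle (2), ciliary regulators of hedgehog signalling (5), and transition zone and centriole (8).

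The primary cilium is a single, non-motile antenna that grows from the mother centriole. Kinesin motors carry IFT trains, which hold both IFT-A and IFT-B, outward and dynein motors carry them back. The BBSome moves membrane receptors out of the cilium, and the transition zone at its base decides what enters. In GNPs the hedgehog signal is received there, since PTCH1, SMO and the GLI factors all pass through the cilium, and medulloblastomas of the SHH type have an active hedgehog pathway.

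RNA of 23 samples was measured on Affymetrix mouse expression arrays. The 3 CRISPR-Ptch1 tumours arose after Cas9 disruption of Ptch1 in the cerebellum, 2 by in utero electroporation of wild-type embryos (EP 1 and EP 2) and 1 by transfection of a newborn Trp53-/- mouse (TF). MERP tumours (5, Atoh1-CreER;Ptch1 fl/fl) lost Ptch1 after birth in cells that express Math1 (Atoh1), and Ptch1+/- tumours (4) came from a germline deletion. GTML tumours (4) arose without Ptch1 disruption from overexpressed Mycn. The normal tissues were GNPs (3) taken between postnatal day 4 and 7 and adult cerebellum (4). All carry the strain label CD1, although the study's methods name C57BL/6N for the transfected mice. The labels give neither ages of the tumours and adults nor array batches, so batch and group cannot be told apart. The study describes more CRISPR-Ptch1 tumours with expression arrays than the 3 held here, and it lists a mouse for each of its CRISPR-Ptch1 tumours. The labels used here do not say that the samples of the other groups came from separate animals. The p-values therefore reflect no more than how far these arrays spread, and the number of arrays limits the precision.

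Values are log2 array levels by RMA, and levels are compared between groups for the same probe set only. Array medians ran from 5.999 to 6.17, and the lower quartile, read here as near background, from 4.40 to 4.61. A list of 11 proliferation genes was at 11.48 to 12.05 in tumours and GNPs and at 5.86 to 6.59 in adult cerebellum. The GNP marker list was at 10.72 to 11.27 in the Ptch1 models and GNPs, against 7.72 to 8.41 in GTML and 8.08 to 8.32 in adult cerebellum. The gap between 3' and 5' control probe sets of actin and Gapdh, a measure of RNA integrity, was 0.19 to 0.23 in CRISPR-Ptch1, 0.40 to 1.71 in MERP, 0.99 to 1.53 in Ptch1+/-, 1.10 to 1.28 in GTML, 0.31 to 0.53 in GNPs and 0.47 to 0.54 in adult cerebellum. The probe set of Ptch1 averaged 12.98 in CRISPR-Ptch1, 13.04 in MERP, 11.85 in Ptch1+/-, 10.46 in GTML, 11.82 in GNPs and 11.95 in adult cerebellum, and it need not lie in the disrupted part, so it does not check the labels.

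Many ciliary genes are controlled in vertebrates by RFX factors, which bind a paired element called the X-box. Promoters were available for 38 of the 42 members (41 promoters of 300 bases, 250 before and 50 after the start site, from RefSeq, build GRCm38.p6). The X-box, written as GTTNCC, then 1 to 3 bases of any kind, then GGNAAC, was sought on both strands. It was found in 6 member promoters (14.6%), against 255 of 32851 promoters of all genes (0.776%). Among 53 promoters of other primary cilium genes 2 held it (3.77%), and among 26 promoters of motile cilium genes 1 did (3.85%). The binding site of GLI factors, GACCACCCA, was in none of the member promoters and in 0.253% of all. These are matches of letters and not measured binding. The 6 elements are shown in capitals with up to 40 flanking bases inside the promoter window, read 5' to 3' on the strand of the gene, because this element was found in a larger share of the member promoters than of all promoters, though most members lack it.
Ift57 (chr16:49699194-49699286, plus strand): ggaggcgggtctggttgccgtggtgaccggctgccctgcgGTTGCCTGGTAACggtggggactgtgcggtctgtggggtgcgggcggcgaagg
Bbs7 (chr3:36613457-36613550, minus strand): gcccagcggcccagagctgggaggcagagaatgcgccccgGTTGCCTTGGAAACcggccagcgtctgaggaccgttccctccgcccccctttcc
Tctn1 (chr5:122264411-122264464, minus strand): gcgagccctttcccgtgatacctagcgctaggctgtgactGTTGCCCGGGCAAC
Tctn3 (chr19:40612319-40612411, minus strand): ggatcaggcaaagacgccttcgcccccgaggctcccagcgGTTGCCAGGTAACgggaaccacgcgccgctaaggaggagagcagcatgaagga
Mks1 (chr11:87853151-87853244, plus strand): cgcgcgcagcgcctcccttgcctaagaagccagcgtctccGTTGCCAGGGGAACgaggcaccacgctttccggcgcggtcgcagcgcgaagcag
Ahi1 (chr10:20952528-20952596, plus strand): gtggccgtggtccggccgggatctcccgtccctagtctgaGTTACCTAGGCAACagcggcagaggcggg

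Of the 6 genes with the element, 4 (Tctn1, Tctn3, Mks1 and Ahi1) belong to the transition zone, while Ift57 is an IFT-B subunit and Bbs7 a BBSome subunit. They did not move as a group, as Mks1 was higher in every tumour type than in adult cerebellum, Ahi1 was lower in all but MERP, and Tctn1 passed the test in none of the 11 comparisons. Evc and Evc2, the members with some of the widest differences between groups, are neighbours on chromosome 5 in opposite directions, with 1530 bases between the annotated genes. Their promoters, at either end of that stretch, are shown because both genes differ between the Ptch1 models and GTML. Neither the X-box nor the GLI letters were found in them.
Evc (chr5:37336832-37337131, minus strand): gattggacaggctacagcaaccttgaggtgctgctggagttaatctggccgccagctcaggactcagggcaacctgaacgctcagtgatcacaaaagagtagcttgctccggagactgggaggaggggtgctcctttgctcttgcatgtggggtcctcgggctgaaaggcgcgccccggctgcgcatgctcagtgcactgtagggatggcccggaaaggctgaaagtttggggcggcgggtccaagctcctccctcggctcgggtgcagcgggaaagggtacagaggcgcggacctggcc
Evc2 (chr5:37338228-37338527, plus strand): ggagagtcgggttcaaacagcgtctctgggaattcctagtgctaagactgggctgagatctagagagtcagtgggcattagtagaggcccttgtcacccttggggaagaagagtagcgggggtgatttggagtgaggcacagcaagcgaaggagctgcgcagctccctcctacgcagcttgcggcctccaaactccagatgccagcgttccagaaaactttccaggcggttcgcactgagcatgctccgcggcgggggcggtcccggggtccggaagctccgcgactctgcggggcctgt

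**Figure D1:**
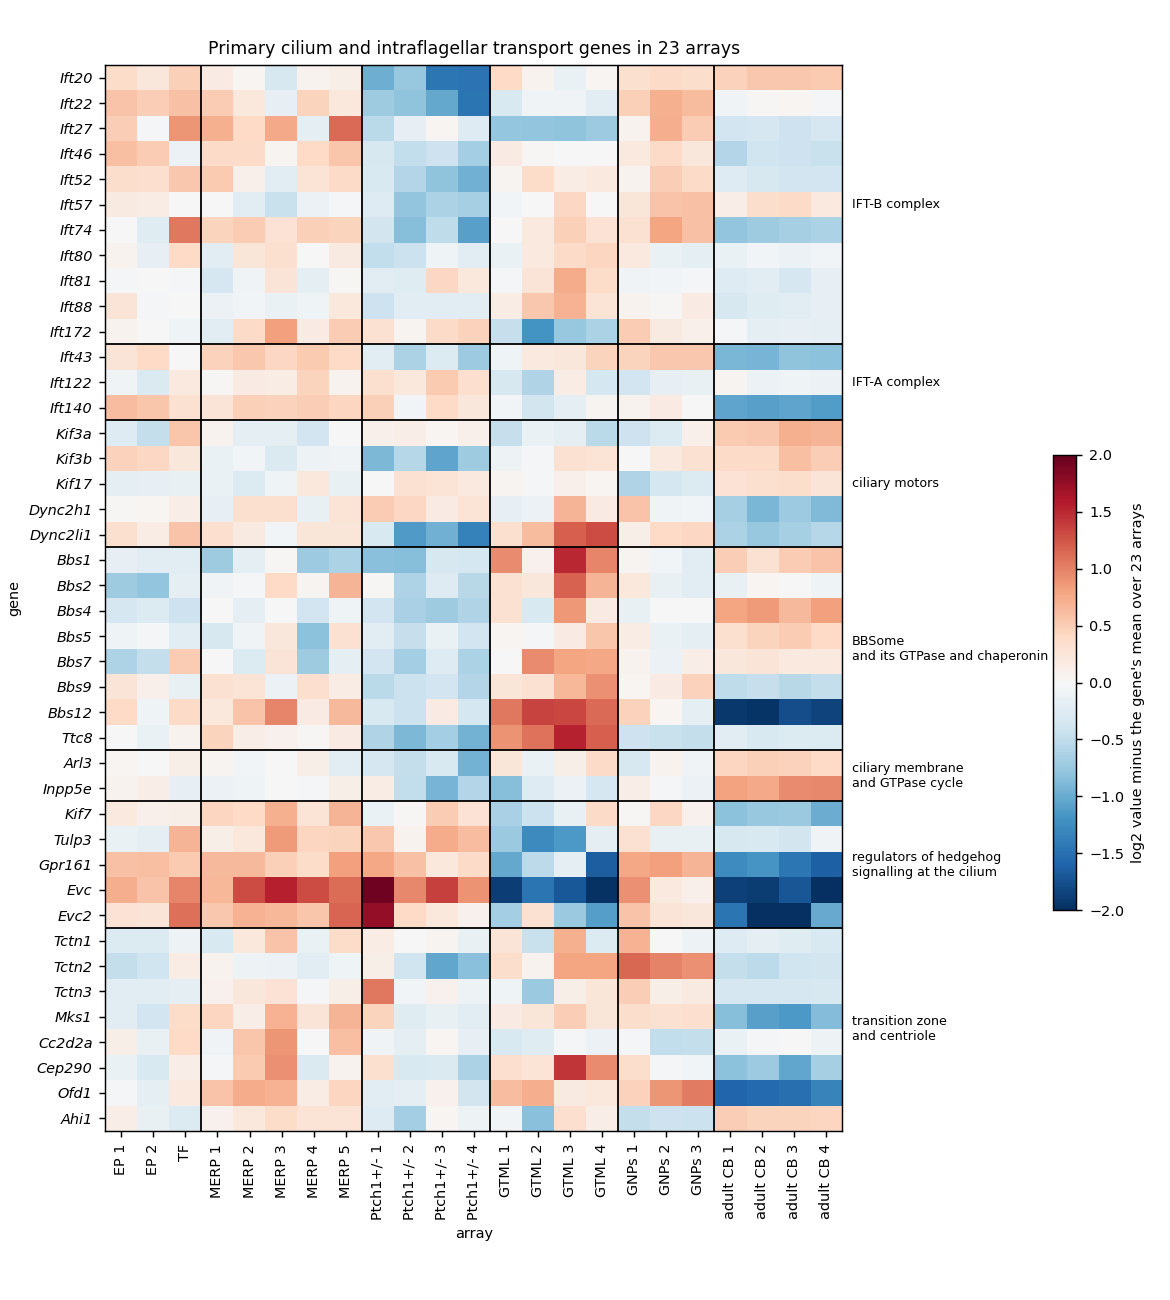
Each row is 1 of the 42 genes and each column 1 of the 23 arrays, with colour giving the log2 level minus that gene's mean over all arrays. Rows are grouped by role. The Evc and Gpr161 rows are blue in GTML and adult cerebellum, and most BBSome rows are red in GTML.

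Compared with adult cerebellum, more ciliary genes were higher than lower in all 5 growing tissues, by 1 gene in Ptch1+/-. Each gene was tested with limma over all 18194 genes and called at an adjusted p under 0.05, and these 5 comparisons share the 4 adult arrays. In CRISPR-Ptch1, 19 of 42 were higher and 8 lower (26.4% and 21.1% of all genes), with a median log2 difference of 0.23 against 0.02 for all genes. In MERP, 22 were higher and 10 lower (30.8% and 24.9% of all genes), with a median of 0.45 against 0.08. Ptch1+/- had 14 higher and 13 lower (22.4% and 30.8%) and a median of -0.02 against -0.03.

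In GTML, 20 members were higher and 9 lower than in adult cerebellum (27.3% and 27.9% of all genes), with a median of 0.41 against 0.04. In GNPs, 21 were higher and 7 lower (29.1% and 21% of all genes), with a median of 0.43 against 0.03. The split depended on how arrays are scaled. Centring each array on its median gene moved the differences by 0.31 in Ptch1+/-, 0.20 in GTML and -0.23 in GNPs. The counts then were 18 higher and 9 lower in Ptch1+/-, 25 and 2 in GTML, and 18 and 12 in GNPs. The share of all genes called after centring is not given here. Counts of calls after centring, here and below, therefore show how the calls depend on scaling and are not read as particular to ciliary genes. The 8 lower calls of CRISPR-Ptch1 were 5 without EP 1, without EP 2 or without adult cerebellum 3, and 3 with TF as the sole tumour, and the 9 lower calls of GTML were 5 without GTML 2.

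**Figure D2:**
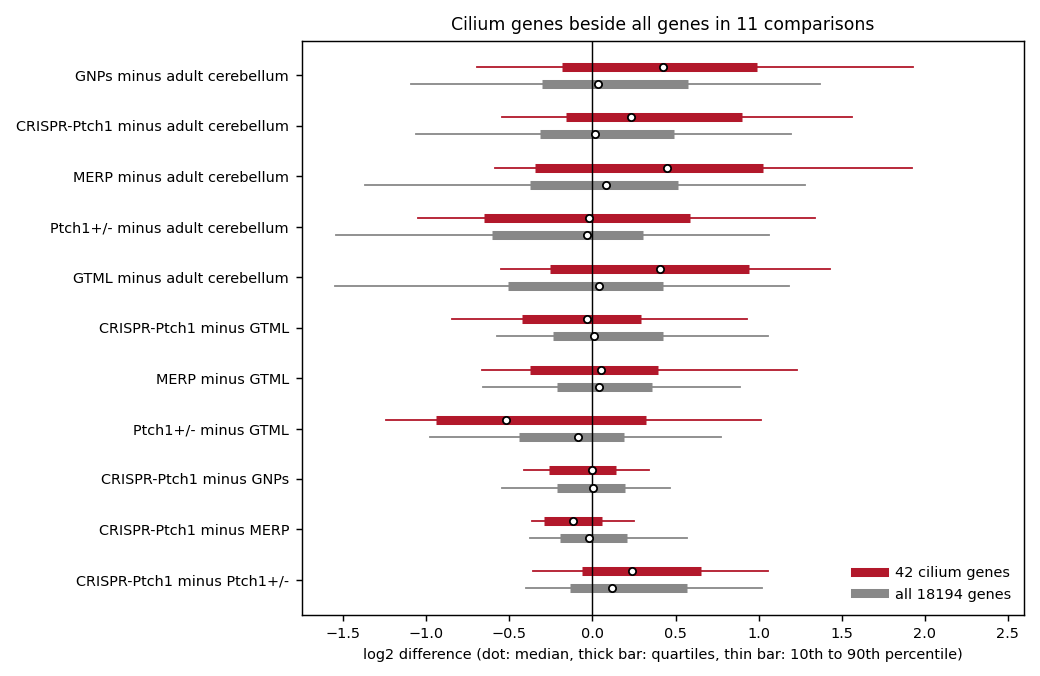
Log2 differences of the 42 ciliary genes (red) and of all 18194 genes (grey) in the 11 comparisons, with the median as a dot, quartiles as thick bars and thin bars between the outer deciles. The median of the ciliary genes lies furthest below that of all genes in Ptch1+/- minus GTML (-0.52 against -0.09).

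A set of 9 members was higher than in adult cerebellum in all 4 tumour types and in GNPs, which covers the IFT-A subunits Ift43 and Ift140, the retrograde dynein heavy chain Dync2h1, the chaperonin-like BBSome assembly factor Bbs12, the base proteins Mks1 and Ofd1, and the hedgehog regulators Evc2, Gpr161 and Kif7. That is 9 of 42, where 12.2% of all genes were higher in all 5 comparisons, which share the adult arrays. Bbs12 had the widest difference of GTML. Its levels were 7.90, 7.42 and 7.88 in CRISPR-Ptch1, 7.71, 8.07, 8.47, 7.66 and 8.15 in MERP, 7.19, 7.08, 7.67 and 7.14 in Ptch1+/-, 8.55, 8.85, 8.84 and 8.63 in GTML, and 7.96, 7.54 and 7.31 in GNPs, against 5.57, 5.53, 5.73 and 5.65 in adult cerebellum. Every one of these 19 arrays was above the adult ones, by a mean log2 of 2.11 (SE 0.19) in CRISPR-Ptch1, 2.39 (SE 0.17) in MERP, 1.65 (SE 0.18) in Ptch1+/-, 3.10 (SE 0.18, adjusted p = 2.66e-12) in GTML and 1.98 (SE 0.19) in GNPs.

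Ofd1, a distal centriole protein needed to dock the cilium, was highest in GNPs. Its levels were 8.47, 8.90 and 9.05 in GNPs and 6.42, 6.46, 6.51 and 6.67 in adult cerebellum, a log2 difference of 2.29 (SE 0.17, adjusted p = 2.74e-10). In tumours the difference was 1.49 (SE 0.17) for CRISPR-Ptch1, 2.01 (SE 0.15) for MERP, 1.33 (SE 0.16) for Ptch1+/- and 1.93 (SE 0.16) for GTML. No tumour or GNP array overlapped the adult ones. Ift140, an IFT-A subunit, was higher by 1.57 (SE 0.12) in CRISPR-Ptch1, 1.503 (SE 0.11) in MERP and 1.34 (SE 0.11) in Ptch1+/-. It was higher by 0.94 (SE 0.11) in GTML and 1.16 (SE 0.12) in GNPs. In GTML the next widest after Bbs12 and Ofd1 were Cep290, a transition zone scaffold (1.56, SE 0.26), Dync2li1, a light chain of the retrograde dynein (1.52, SE 0.20), and Ttc8, a BBSome subunit (1.44, SE 0.12).

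Kif3a, Inpp5e and Bbs4 were lower than in adult cerebellum in all 4 tumour types and in GNPs, 3 of 42 where 13.3% of all genes were lower in all 5 comparisons. Inpp5e, a phosphatase that sets the lipid make-up of the ciliary membrane, was at 8.20, 8.26 and 7.98 in CRISPR-Ptch1, 8.02, 8.05, 8.14, 8.12 and 8.25 in MERP, 8.29, 7.65, 7.21 and 7.55 in Ptch1+/-, 7.29, 7.88, 8.03 and 7.81 in GTML, and 8.27, 8.11 and 8.03 in GNPs, against 8.95, 8.89, 9.09 and 9.10 in adult cerebellum. No array overlapped the adult ones, and the log2 differences ran from -1.33 (SE 0.17) in Ptch1+/- to -0.86 (SE 0.18) in CRISPR-Ptch1. Kif3a, a motor subunit of the outbound kinesin that neurons also use in axons, differed by -0.67 (SE 0.18) in CRISPR-Ptch1, -0.76 (SE 0.16) in MERP, -0.52 (SE 0.17) in Ptch1+/-, -0.95 (SE 0.17) in GTML and -0.81 (SE 0.18) in GNPs. One CRISPR-Ptch1 array, TF at 9.75, overlapped the adult range of 9.72 to 9.90, and the call in Ptch1+/- was lost on centring (-0.21, adjusted p = 0.339). The BBSome subunit Bbs4 differed by -1.12 (SE 0.17) in CRISPR-Ptch1, -0.91 (SE 0.15) in MERP, -1.36 (SE 0.16) in Ptch1+/-, -0.52 (SE 0.16) in GTML and -0.82 (SE 0.17) in GNPs, and the GTML call was lost without GTML 2 and on centring.

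The remaining members with the lowest differences from adult cerebellum varied by model. Bbs1, a BBSome subunit, was lower by -0.66 (SE 0.24) in CRISPR-Ptch1, -0.91 (SE 0.21) in MERP and -1.05 (SE 0.22) in Ptch1+/-. The first of these calls was lost without EP 1, EP 2, TF, adult cerebellum 3 or adult cerebellum 4. The outbound kinesin subunit Kif3b was lower by -0.59 (SE 0.11) in MERP and -1.28 (SE 0.12) in Ptch1+/-, and Ift20, an IFT-B subunit that also sits at the Golgi, by -1.68 (SE 0.14) in Ptch1+/-. Of the 4 probe sets of Kif3b, 3 were called lower in MERP and 2 in Ptch1+/-. Kif17, another outbound kinesin, was lower in CRISPR-Ptch1 (-0.47, SE 0.11), MERP (-0.39, SE 0.10), GTML (-0.26, SE 0.10) and GNPs (-0.71, SE 0.11). Its GTML call was lost on centring and without GTML 2, GTML 4 or adult cerebellum 1, 2 or 3. Ahi1, a transition zone protein mutated in human Joubert syndrome, was lower in CRISPR-Ptch1 (-0.54, SE 0.20), Ptch1+/- (-0.70, SE 0.18, lost on centring), GTML (-0.56, SE 0.18) and GNPs (-0.89, SE 0.20). The CRISPR-Ptch1 call for Ahi1 was lost without EP 2, TF or adult cerebellum 1, and the GTML call without GTML 2 and on centring. Ift172, an IFT-B subunit, was lower in GTML (-0.62, SE 0.17), a call also lost on centring (-0.41). The train subunit Ift88, whose loss abolishes mouse cilia, was higher in GTML (0.65, SE 0.11). In CRISPR-Ptch1 and GNPs its differences were 0.31 (SE 0.12) and 0.32 (SE 0.12), which passed as deposited and did not after centring (0.14 in CRISPR-Ptch1 and 0.09 in GNPs) or without any 1 of several arrays (EP 1 and adult cerebellum 1, 2 and 3 for CRISPR-Ptch1, GNPs 1 and 3 and adult cerebellum 1, 2 and 3 for GNPs).

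Cell make-up moved with these comparisons, and fewer cells of a type cannot be told apart from less RNA per cell in such bulk samples. All 12 markers of mature granule neurons and all 7 of Purkinje cells were lower in each tumour type than in adult cerebellum. The mature granule neuron list was at 8.14 to 10.46 in CRISPR-Ptch1, 6.93 to 7.59 in MERP, 7.37 to 7.60 in Ptch1+/-, 6.64 to 7.56 in GTML and 7.94 to 8.14 in GNPs, against 12.10 to 12.14 in adult cerebellum. In GNPs all 8 choroid plexus markers were higher than in adult cerebellum (list level 9.45 to 10.22 in GNPs against 6.06 to 6.36 in adult cerebellum), as were all 8 of meninges and fibroblasts and 9 of 10 of endothelial cells and pericytes. Their part in the ciliary results was not tested.

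Genes of motile cilia, which belong to ependyma and choroid plexus and not to GNPs, set the GNP samples apart. Of 26 such genes, 19 were higher and 1 lower in GNPs than in adult cerebellum, with a median log2 of 1.62, and the list level was 6.90 to 7.33 in GNPs and 5.48 to 5.54 in adult cerebellum. Foxj1, the master regulator of motile cilia, averaged 8.09 in GNPs and 5.41 in adult cerebellum (log2 difference 2.68, SE 0.14). Enkur, a protein of motile axonemes, averaged 8.57 in GNPs and 4.86 in adult cerebellum (3.71, SE 0.51). The choroid plexus transcript Ttr averaged 14.83 in GNPs and 8.98 in adult cerebellum (5.85, SE 2.29). Many IFT and transition zone genes also serve motile cilia, so their levels in GNPs include whatever such cells contribute, and this part was not tested. The list level was 5.15 to 5.35 in CRISPR-Ptch1, 5.22 to 5.37 in MERP, 5.09 to 5.38 in Ptch1+/- and 5.48 to 6.02 in GTML, and 7 or 8 of its 26 genes were near background there and 8 in adult cerebellum. Genes lower than in adult cerebellum numbered 12 in CRISPR-Ptch1, 11 in MERP, 11 in Ptch1+/- and 5 in GTML, and genes higher 2 in CRISPR-Ptch1, 2 in MERP, 1 in Ptch1+/- and 6 in GTML.

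The comparison of the Ptch1 models with GTML asks how ciliary genes differ between tumours with a broken hedgehog brake and tumours driven by Mycn, and all 3 comparisons share the 4 GTML arrays. In CRISPR-Ptch1, 8 members were higher and 11 lower (22.7% and 14.1% of all genes), with a median log2 of -0.03 against 0.01 for all genes. In MERP, 11 were higher and 10 lower (23.4% and 15.8%), with a median of 0.05 against 0.04. In Ptch1+/-, 9 were higher and 23 lower (16.6% and 27.1%), with a median of -0.52 against -0.09. Centring moved the differences by -0.37 in CRISPR-Ptch1, -0.17 in MERP and 0.11 in Ptch1+/-, and gave 4 higher and 23 lower in CRISPR-Ptch1, 8 and 16 in MERP, and 11 and 21 in Ptch1+/-. The 11 lower calls of CRISPR-Ptch1 were 7 without EP 1 or without EP 2, 4 with TF alone and 4 in a fit of these 2 groups only, and the 10 of MERP were 6 without GTML 3 or without GTML 4.

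A pair of roles moved one way in all 3 Ptch1 models. Ciliary regulators of hedgehog signalling were higher than in GTML, 4 of 5 in CRISPR-Ptch1, 5 of 5 in MERP and 4 of 5 in Ptch1+/- (after centring 3 in CRISPR-Ptch1, 5 in MERP and 5 in Ptch1+/-), with no member lower. Their median log2 differences were 1.10 in CRISPR-Ptch1, 1.27 in MERP and 1.33 in Ptch1+/-. BBSome genes were lower, 7 of 8 in CRISPR-Ptch1, 6 of 8 in MERP and 8 of 8 in Ptch1+/- (after centring 8 in CRISPR-Ptch1, 8 in MERP and 7 in Ptch1+/-), with no member higher. Their medians were -0.90 in CRISPR-Ptch1, -0.55 in MERP and -1.07 in Ptch1+/-. Over all members, 7 were higher in all 3 models (Evc, Evc2, Gpr161, Tulp3, Ift27, Ift140 and Ift172) and 8 lower in all 3 (Bbs1, Bbs4, Bbs7, Bbs9, Bbs12, Ttc8, Ift88 and Tctn2). The comparisons share the GTML arrays, and 10% of all genes were higher and 8.41% lower in all 3. Of these members, Evc2, Ift27, Bbs4, Bbs7, Bbs9, Ift88 and Tctn2 lost a call in at least 1 model without a single array, and Evc2, Ift140 and Ift172 lost that of CRISPR-Ptch1 on centring. The hedgehog pathway list moved with these results. Of its 15 genes, 13 in CRISPR-Ptch1, 13 in MERP and 12 in Ptch1+/- were higher than in GTML. Its level was 10.02 to 10.46 in CRISPR-Ptch1, 10.11 to 10.42 in MERP and 10.26 to 10.41 in Ptch1+/-, against 7.71 to 8.01 in GTML. The target Gli1 averaged 9.50 in CRISPR-Ptch1, 10.36 in MERP and 10.34 in Ptch1+/-, against 4.50 in GTML, a level near background. The GNP marker list moved the same way, with 7 of 10 genes higher than in GTML in each Ptch1 model. In CRISPR-Ptch1 and in MERP 1 of them was lower, and in Ptch1+/- none. Granule lineage and hedgehog signalling cannot be told apart in these comparisons, and the part of either was not tested.

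Evc and Evc2 form a complex at the ciliary base that passes the signal on from SMO, and in humans their loss causes Ellis-van Creveld syndrome. Evc had the widest difference of any member. Its levels were 7.67, 7.51 and 7.92 in CRISPR-Ptch1, 7.61, 8.25, 8.49, 8.25 and 8.06 in MERP, and 8.89, 7.91, 8.30 and 7.85 in Ptch1+/-, against 5.06, 5.49, 5.25 and 4.97 in GTML. GNPs were at 7.85, 7.13 and 7.04 and adult cerebellum at 5.07, 5.05, 5.24 and 4.85. All Ptch1 tumours and GNPs thus lay above all GTML tumours and adult cerebella with no overlap, and GTML overlapped adult cerebellum. The log2 difference from GTML was 2.50 (SE 0.24, adjusted p = 4.7e-08) in CRISPR-Ptch1, 2.94 (SE 0.21, adjusted p = 3.83e-10) in MERP and 3.05 (SE 0.22, adjusted p = 4.79e-10) in Ptch1+/-. In linear terms Evc was 5.67-fold higher in CRISPR-Ptch1, 7.68-fold in MERP and 8.26-fold in Ptch1+/-. From adult cerebellum the log2 difference was 2.65 (SE 0.24) in CRISPR-Ptch1, 3.08 (SE 0.21) in MERP, 3.19 (SE 0.22) in Ptch1+/- and 2.29 (SE 0.24) in GNPs. GTML differed from adult cerebellum by 0.14 (SE 0.22, adjusted p = 0.619). These values are of 1 of the 2 probe sets of Evc. The other was not called against GTML in any Ptch1 model. Against adult cerebellum the other was called higher in MERP, Ptch1+/- and GTML, and it was not called in CRISPR-Ptch1 or GNPs.

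Evc2 was at 7.92, 7.88 and 8.73 in CRISPR-Ptch1, 8.16, 8.32, 8.29, 8.18 and 8.80 in MERP, and 9.39, 8.02, 7.84 and 7.72 in Ptch1+/-, against 6.95, 7.94, 6.89 and 6.53 in GTML. GNPs were at 8.19, 7.88 and 7.86 and adult cerebellum at 6.17, 5.62, 5.51 and 6.62. GTML 2 reached into the range of CRISPR-Ptch1 and Ptch1+/-, while MERP stayed above. The log2 difference from GTML was 1.10 (SE 0.36, adjusted p = 0.0208) in CRISPR-Ptch1, 1.27 (SE 0.32, adjusted p = 0.00282) in MERP and 1.17 (SE 0.33, adjusted p = 0.00714) in Ptch1+/-. The CRISPR-Ptch1 call was lost without TF (0.82), without GTML 4 (0.92) and on centring (0.73). From adult cerebellum Evc2 differed by 2.19 (SE 0.36) in CRISPR-Ptch1, 2.37 (SE 0.32) in MERP, 2.26 (SE 0.33) in Ptch1+/-, 1.09 (SE 0.33) in GTML and 1.99 (SE 0.36) in GNPs.

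Gpr161 is a receptor that keeps hedgehog signalling off from inside the cilium, and Tulp3 is the adaptor that carries it there. Gpr161 was at 8.63, 8.65 and 8.57 in CRISPR-Ptch1, 8.69, 8.69, 8.53, 8.41 and 8.86 in MERP, and 8.83, 8.64, 8.26 and 8.43 in Ptch1+/-, against 7.03, 7.52, 7.87 and 6.40 in GTML. GNPs were at 8.82, 8.86 and 8.73 and adult cerebellum at 6.79, 6.86, 6.60 and 6.42. No Ptch1 tumour overlapped GTML, and GTML 4 lay below all adult arrays. Of the 2 probe sets of Gpr161, only the one used here was called against GTML, higher in each Ptch1 model. Against adult cerebellum too, only the one used was called, in all 4 tumour types and in GNPs. The log2 difference from GTML was 1.41 (SE 0.23, adjusted p = 4.71e-05) in CRISPR-Ptch1, 1.43 (SE 0.20, adjusted p = 6.08e-06) in MERP and 1.33 (SE 0.21, adjusted p = 2.29e-05) in Ptch1+/-. From adult cerebellum it was 1.95 (SE 0.23) in CRISPR-Ptch1, 1.97 (SE 0.20) in MERP, 1.87 (SE 0.21) in Ptch1+/- and 2.14 (SE 0.23) in GNPs. GTML differed from adult cerebellum by 0.54 (SE 0.21, adjusted p = 0.0347), a call lost without GTML 2 (0.43), GTML 3 (0.32), adult cerebellum 3 (0.51) or adult cerebellum 4 (0.46).

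Tulp3 was at 8.26, 8.20 and 9.06 in CRISPR-Ptch1, 8.51, 8.61, 9.24, 8.82 and 8.83 in MERP, and 8.93, 8.46, 9.13 and 9.01 in Ptch1+/-, against 7.65, 7.12, 7.24 and 8.22 in GTML. GTML 4 overlapped EP 2 by a narrow margin, and MERP and Ptch1+/- stayed above GTML. Of the 3 probe sets of Tulp3, only the one used here was called against GTML, higher in each Ptch1 model. Against adult cerebellum too, no other probe set of Tulp3 was called in any group. The log2 difference from GTML was 0.95 (SE 0.24, adjusted p = 0.00416) in CRISPR-Ptch1, 1.25 (SE 0.21, adjusted p = 8.08e-05) in MERP and 1.33 (SE 0.23, adjusted p = 5.92e-05) in Ptch1+/-. Against adult cerebellum, Tulp3 was higher in MERP (0.67, SE 0.21) and Ptch1+/- (0.75, SE 0.23), while CRISPR-Ptch1 (0.38, SE 0.24) and GNPs (0.26, SE 0.24) did not pass. GTML was lower (-0.57, SE 0.23, adjusted p = 0.0376), a call lost on centring (-0.37) and without GTML 2, GTML 3, adult cerebellum 1, adult cerebellum 2 or adult cerebellum 4 (-0.59 to -0.43).

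Kif7, a kinesin that organises the ciliary tip where GLI proteins gather, differed less from GTML. Its levels were 7.43, 7.32 and 7.34 in CRISPR-Ptch1, 7.65, 7.63, 7.94, 7.50 and 7.91 in MERP, and 7.09, 7.24, 7.73 and 7.52 in Ptch1+/-, against 6.58, 6.80, 7.08 and 7.61 in GTML. GTML 4 overlapped all 3 models, and MERP alone passed (0.71, SE 0.17, adjusted p = 0.00177), with 0.34 (SE 0.19) in CRISPR-Ptch1 and 0.38 (SE 0.18) in Ptch1+/-. Against adult cerebellum Kif7 was higher in CRISPR-Ptch1 (0.97, SE 0.19), MERP (1.33, SE 0.17), Ptch1+/- (0.999, SE 0.18), GTML (0.62, SE 0.18) and GNPs (1.001, SE 0.19), with no overlap in any of them.

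**Figure D3:**
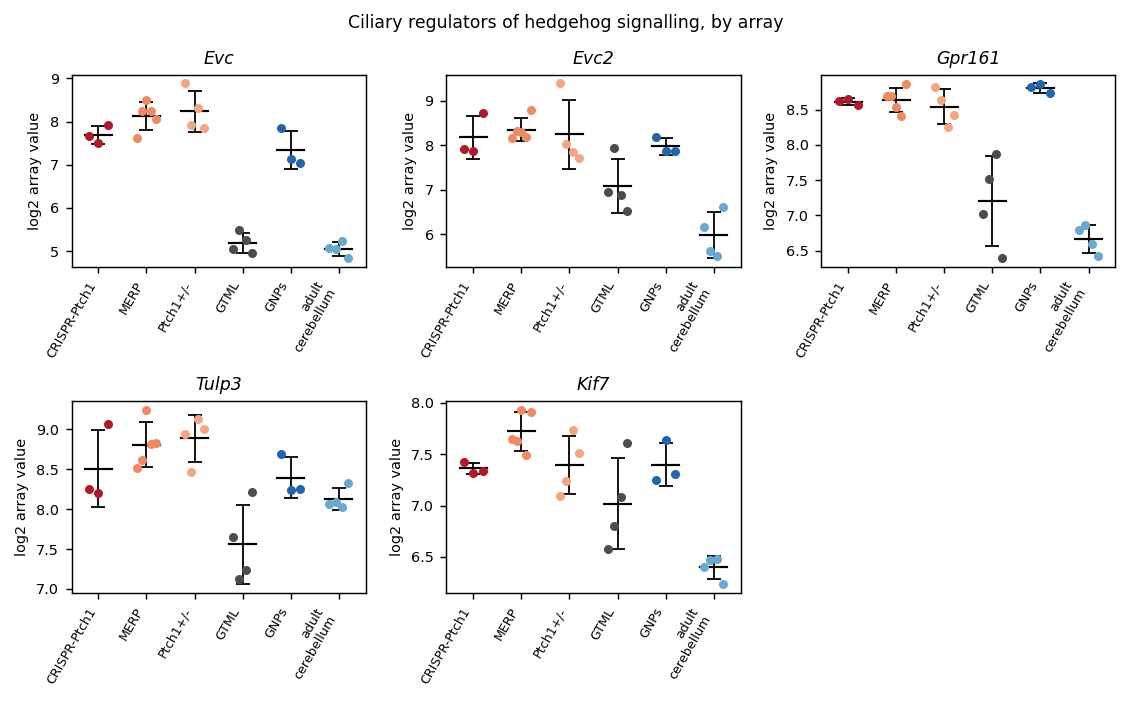
Log2 levels of Evc, Evc2, Gpr161, Tulp3 and Kif7 in each array (dots) with the group mean and SD (bars) for CRISPR-Ptch1, MERP, Ptch1+/-, GTML, GNPs and adult cerebellum. For Evc, GTML (4.97 to 5.49) lies with adult cerebellum (4.85 to 5.24), below every Ptch1 tumour (7.51 to 8.89).

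BBSome genes showed the opposite order, with GTML above the Ptch1 models. Ttc8 was at 9.58, 9.44 and 9.64 in CRISPR-Ptch1, 10.03, 9.71, 9.65, 9.61 and 9.74 in MERP, and 8.97, 8.67, 8.90 and 8.64 in Ptch1+/-, against 10.47, 10.66, 11.11 and 10.78 in GTML. GNPs (9.10 to 9.17) and adult cerebellum (9.27 to 9.37) lay below GTML too. No other array reached the GTML range, and Ptch1+/- lay below every other array. The log2 difference from GTML was -1.20 (SE 0.13, adjusted p = 2.76e-07) in CRISPR-Ptch1, -1.01 (SE 0.11, adjusted p = 3.64e-07) in MERP and -1.96 (SE 0.12, adjusted p = 3.86e-11) in Ptch1+/-.

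Bbs1 was at 8.003, 7.96 and 7.95 in CRISPR-Ptch1, 7.45, 7.96, 8.19, 7.44 and 7.53 in MERP, and 7.32, 7.31, 7.84 and 7.81 in Ptch1+/-, against 9.10, 8.25, 9.66 and 9.14 in GTML. All Ptch1 tumours lay below GTML, the closest being MERP 3 and GTML 2. The log2 difference was -1.07 (SE 0.24, adjusted p = 0.00121) in CRISPR-Ptch1, -1.32 (SE 0.21, adjusted p = 2.71e-05) in MERP and -1.47 (SE 0.22, adjusted p = 1.23e-05) in Ptch1+/-. Bbs12, whose levels by array are given above, had no overlap with GTML in any of the 3 models and differed by -0.99 (SE 0.19) in CRISPR-Ptch1, -0.71 (SE 0.17) in MERP and -1.45 (SE 0.18) in Ptch1+/-.

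The other BBSome subunits followed with smaller margins. Bbs7 differed from GTML by -0.82 (SE 0.24) in CRISPR-Ptch1, -0.81 (SE 0.21) in MERP and -1.11 (SE 0.23) in Ptch1+/-, and its CRISPR-Ptch1 call was lost without EP 1 or EP 2. Bbs2 differed by -1.16 (SE 0.22) in CRISPR-Ptch1, -0.39 (SE 0.20, not passed) in MERP and -0.95 (SE 0.21) in Ptch1+/-. Bbs4 differed by -0.60 (SE 0.17) in CRISPR-Ptch1, -0.39 (SE 0.15) in MERP and -0.85 (SE 0.16) in Ptch1+/-, and its MERP call (adjusted p = 0.0463) was lost without any of GTML 1, 3 and 4 and MERP 2, 4 and 5. Bbs9 differed by -0.46 (SE 0.15) in CRISPR-Ptch1, -0.35 (SE 0.13) in MERP and -1.02 (SE 0.14) in Ptch1+/-, with the CRISPR-Ptch1 call lost without TF, GTML 3 or GTML 4 and the MERP call without GTML 3, GTML 4, MERP 3 or MERP 5. Bbs5 passed in Ptch1+/- alone (-0.48, SE 0.18), a call lost without GTML 3, GTML 4, Ptch1+/- 2 or Ptch1+/- 4 and on centring.

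**Figure D4:**
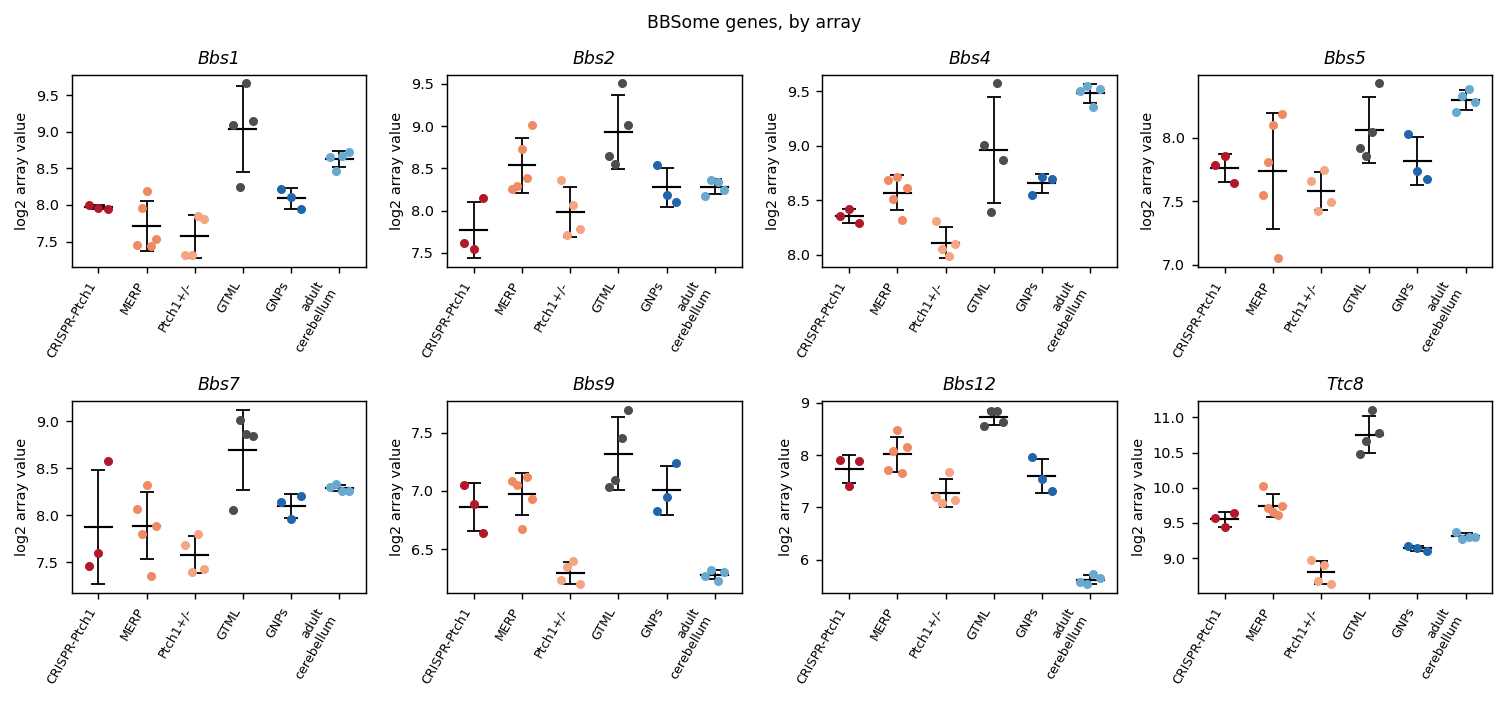
Log2 levels of the 8 measured BBSome genes in each array (dots) with the group mean and SD (bars), by group as in the plot of hedgehog regulators. Ttc8 and Bbs12 show GTML above all other groups without overlap (10.47 to 11.11 and 8.55 to 8.85), while for Bbs4 adult cerebellum has the highest mean.

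RNA integrity and cell make-up were set beside these differences. The control gap of Ptch1+/- (0.99 to 1.53) overlapped that of GTML (1.10 to 1.28). The gap of MERP (0.40 to 1.71) spanned it. CRISPR-Ptch1 arrays (0.19 to 0.23) had no overlap with GTML in this gap. Its part in these comparisons was not tested. Microglia and macrophage markers were higher in CRISPR-Ptch1 than in GTML for 8 of 11 genes (list level 8.62 to 9.80 in CRISPR-Ptch1 against 7.56 to 8.33 in GTML), with none of 11 higher in MERP or Ptch1+/-. Lower than in GTML were 6 of 10 endothelial, 4 of 7 Purkinje cell, 4 of 8 meningeal and 5 of 9 oligodendrocyte markers in MERP, and 5 of 10, 4 of 7, 4 of 8 and 1 of 9 of the same lists in Ptch1+/-. Higher were 1 Purkinje cell and 1 meningeal marker in MERP and 2 meningeal markers in Ptch1+/-. Mature granule neuron markers went both ways, with 4 of 12 higher and 4 lower in MERP and 5 higher and 3 lower in Ptch1+/-. Of 8 meningeal markers, 3 were higher and 3 lower in CRISPR-Ptch1. Of 26 motile cilium genes, 9 were lower and 1 higher than in GTML in CRISPR-Ptch1, 6 and 2 in MERP, and 6 and 1 in Ptch1+/-. In the same order, 14.1%, 15.8% and 27.1% of all genes were lower and 22.7%, 23.4% and 16.6% higher. The part of motile ciliated cells in these comparisons was not tested. Markers higher in CRISPR-Ptch1 than in GTML also included 8 of 10 of astrocytes and Bergmann glia, 8 of 12 of mature granule neurons and 5 of 7 of Purkinje cells, and their part was not tested.

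Among the remaining members, IFT subunits split. Ift27 is a small GTPase of IFT-B that the BBSome needs to leave the cilium. It was higher than in GTML by 1.22 (SE 0.23) in CRISPR-Ptch1, 1.34 (SE 0.20) in MERP and 0.54 (SE 0.22, adjusted p = 0.0483) in Ptch1+/-. The last call was lost without any 1 of 7 of the 8 arrays. In a separate fit of all single-gene probe sets, none of the 3 probe sets of Ift27 was called in Ptch1+/- against GTML. All Ptch1 tumours (10.07 to 11.76) lay above GTML (9.82 to 9.89). Ift172 differed by 0.75 (SE 0.19) in CRISPR-Ptch1, 1.09 (SE 0.17) in MERP and 1.06 (SE 0.17) in Ptch1+/-, also without overlap. Ift140 differed by 0.63 (SE 0.12) in CRISPR-Ptch1, 0.57 (SE 0.11) in MERP and 0.40 (SE 0.11) in Ptch1+/-. Ift88 went the other way, at -0.34 (SE 0.12) in CRISPR-Ptch1, -0.45 (SE 0.11) in MERP and -0.68 (SE 0.11) in Ptch1+/-. Its CRISPR-Ptch1 call was lost without EP 2, TF, GTML 2 or GTML 3. Dync2li1 was lower in MERP (-0.67, SE 0.19) and Ptch1+/- (-1.80, SE 0.20) and was at -0.51 (SE 0.22) in CRISPR-Ptch1, which did not pass. Cep290 was lower in CRISPR-Ptch1 (-0.85, SE 0.28), a call lost without EP 1, EP 2 or GTML 3, and in Ptch1+/- (-0.97, SE 0.26). Ift20 was lower in Ptch1+/- (-1.26, SE 0.14).

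Kif3a differed from GTML by 0.28 (SE 0.18) in CRISPR-Ptch1, 0.19 (SE 0.16) in MERP and 0.43 (SE 0.17) in Ptch1+/-. Ptch1+/- alone passed, with an adjusted p of 0.0438, and that call was lost without GTML 1, GTML 4 or any single Ptch1+/- array. Of the 4 probe sets of Kif3a, 2 not used here were called higher in CRISPR-Ptch1 than in GTML, and 3 of the 4 were in Ptch1+/-. Inpp5e differed by 0.40 (SE 0.18) in CRISPR-Ptch1, 0.36 (SE 0.16) in MERP and -0.08 (SE 0.17) in Ptch1+/-, none of which passed. Of the 2 probe sets of Inpp5e, the one not used was called higher in MERP.

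**Figure D5:**
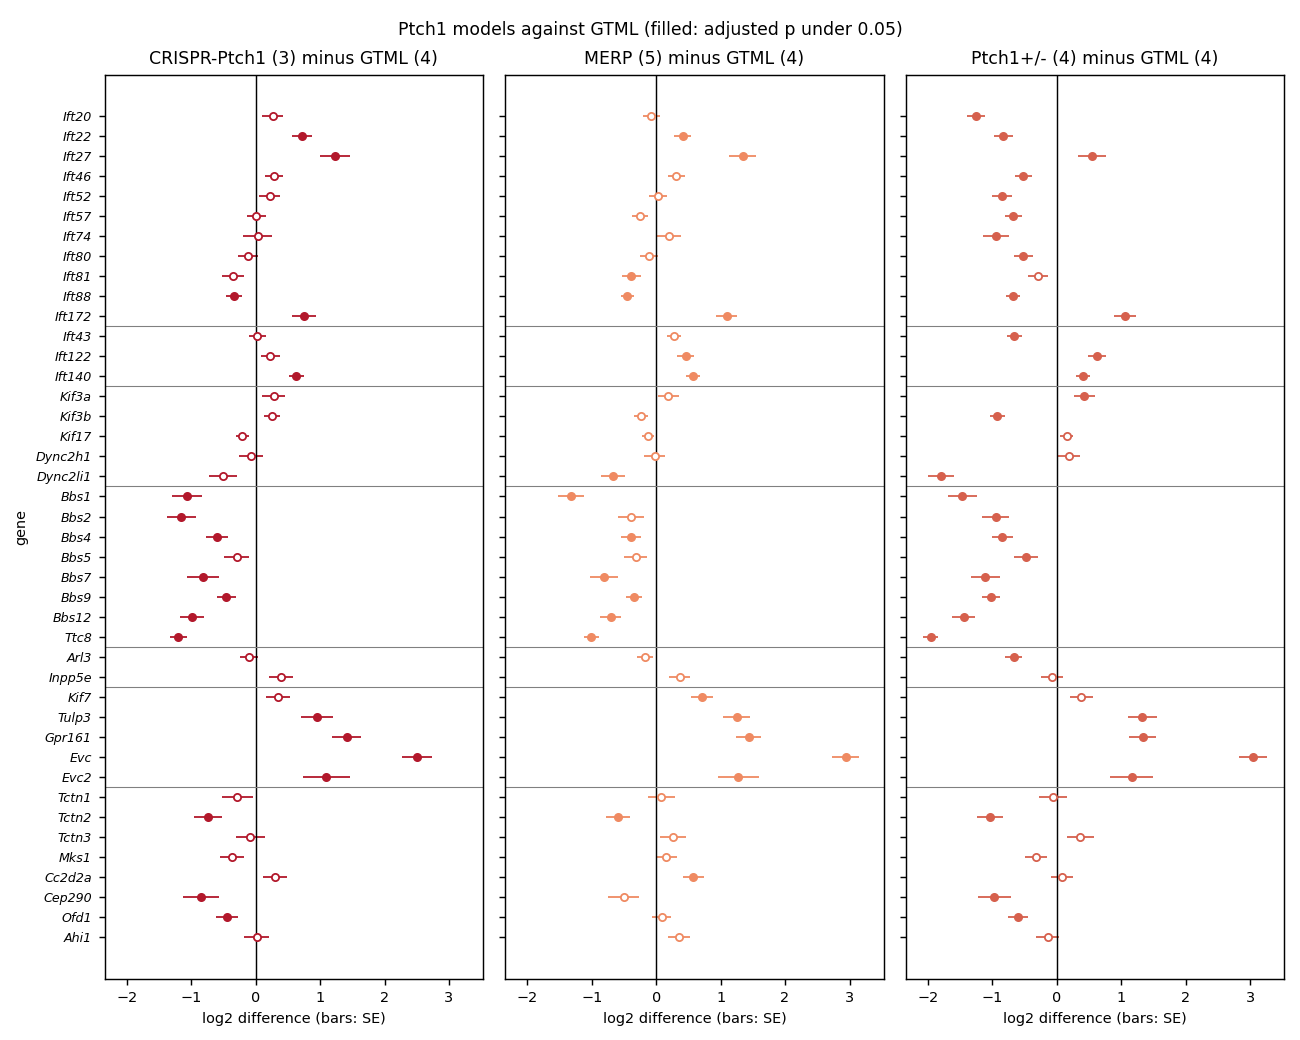
Log2 difference from GTML (x axis, bars are SE) of each of the 42 genes in CRISPR-Ptch1, MERP and Ptch1+/-, with filled circles for adjusted p under 0.05 and lines between roles. BBSome genes lie left of 0 in all 3 panels and hedgehog regulators right of it, with Evc furthest right (2.50 in CRISPR-Ptch1, 2.94 in MERP and 3.05 in Ptch1+/-).

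Several IFT-B genes were lowest in Ptch1+/-, to a degree that depended on the scaling. As deposited, Ptch1+/- held the lowest of the 6 group means for 18 of the 42 members (42.9%) and for 24.7% of all genes. After centring it held the lowest for 5 members (11.9%) and for 8.62% of all genes. Compared with GTML, 8 of 11 IFT-B members were lower and 2 higher (median log2 -0.68), and compared with Ptch1+/-, CRISPR-Ptch1 had 8 of 11 higher and none lower (median 0.69). After centring these were 7 lower and 2 higher than in GTML (median -0.57) and, for CRISPR-Ptch1 compared with Ptch1+/-, 3 higher and 2 lower (median 0.21). Compared with adult cerebellum, the IFT-B median of Ptch1+/- was -0.03 as deposited and 0.28 after centring. Ift20 was at 9.55, 9.40 and 9.65 in CRISPR-Ptch1, against 8.21, 8.43, 7.74 and 7.70 in Ptch1+/-. Ift22, a small GTPase of the same train, was at 9.91, 9.82 and 9.91 in CRISPR-Ptch1, against 8.62, 8.53, 8.31 and 7.87 in Ptch1+/-. Neither gene had any overlap, and Ptch1+/- lay below every other array of the series for both.

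The differences between CRISPR-Ptch1 and Ptch1+/- were 1.52 (SE 0.16, adjusted p = 1.17e-06) for Ift20, 1.55 (SE 0.15, adjusted p = 8.89e-07) for Ift22, 1.29 (SE 0.22) for Dync2li1, 1.18 (SE 0.13) for Kif3b and 1.07 (SE 0.16) for Ift52. Over all members, 15 were higher and 2 lower (28.5% and 8.33% of all genes), with a median log2 of 0.24 against 0.12. Lower were Ift122, an IFT-A subunit (-0.40, SE 0.15), and Kif17 (-0.36, SE 0.11). This split turned on centring, which moved the differences by -0.48, to 5 higher and 13 lower. The 5 that stayed higher were Ift20 (1.04), Ift22 (1.07), Dync2li1 (0.81), Kif3b (0.70) and Ift52 (0.59). Of the 4 probe sets of Kif3b, only the one used here was called against Ptch1+/- as deposited. The 2 lower calls were 1 without EP 1, EP 2, Ptch1+/- 1 or Ptch1+/- 3, 4 without TF and 0 with TF alone. The control gap did not overlap between CRISPR-Ptch1 (0.19 to 0.23) and Ptch1+/- (0.99 to 1.53), all 11 microglia and 7 Purkinje cell markers were higher in CRISPR-Ptch1, and their part was not tested. In GTML, with a gap of 1.10 to 1.28, Ift20 was at 9.05 to 9.57 and Ift22 at 9.02 to 9.27. From Ptch1+/- 1 to Ptch1+/- 4 the gap was 0.99, 1.13, 1.25 and 1.53. In the same order Ift20 was at 8.21, 8.43, 7.74 and 7.70, and Ift22 at 8.62, 8.53, 8.31 and 7.87. MERP 3, with the widest gap (1.71), had the lowest MERP values of Ift20 (8.86) and Ift22 (9.17). The part of RNA integrity in these levels was not tested.

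Of the 8 genes named in every comparison, Inpp5e (0.47, SE 0.18) and Ift88 (0.34, SE 0.12) were higher in CRISPR-Ptch1 than in Ptch1+/-, with both signs turned on centring. The Inpp5e call was lost without EP 1, EP 2, Ptch1+/- 2, Ptch1+/- 3 or Ptch1+/- 4, and that of Ift88 without EP 1 or Ptch1+/- 1. Evc (-0.54, SE 0.24), Evc2 (-0.07, SE 0.36), Gpr161 (0.08, SE 0.23), Tulp3 (-0.38, SE 0.24), Kif7 (-0.03, SE 0.19) and Kif3a (-0.15, SE 0.18) did not pass as deposited. Of the 4 probe sets of Kif3a, 1 not used here was called higher in CRISPR-Ptch1. After centring Evc (-1.02, adjusted p = 0.00217), Tulp3 (-0.85, adjusted p = 0.00597), Kif3a (-0.63, adjusted p = 0.0148) and Kif7 (-0.51, adjusted p = 0.0284) passed as lower in CRISPR-Ptch1. A p that misses the threshold does not show that the levels are alike.

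Between CRISPR-Ptch1 and GNPs or MERP, fewer genes were called in total than in the other comparisons, among the members and among all genes alike. Against GNPs 2 members were higher and 2 lower (5.79% and 7.95% of all genes), and the median log2 was -0.00 against 0.00 for all genes. The transition zone protein Tctn2 was at 5.87, 5.94 and 6.48 in CRISPR-Ptch1, against 7.49, 7.33 and 7.25 in GNPs. The groups did not overlap, and the difference was -1.26 (SE 0.23, adjusted p = 0.00053). Ofd1 was at 7.98, 7.83 and 8.21 in CRISPR-Ptch1, against 8.47, 8.90 and 9.05 in GNPs, with no overlap and a difference of -0.80 (SE 0.18, adjusted p = 0.00389). Ift140 (0.41, SE 0.13, adjusted p = 0.04) and Ttc8 (0.42, SE 0.14, adjusted p = 0.0489) were higher. Both of the higher calls were lost without EP 1, EP 2 or any single GNP array, and that of Ttc8 also without TF. Without TF the count of higher members was 1, and the lower count was 4 without TF and 0 with TF alone. The 19 of 26 motile cilium genes that were lower in CRISPR-Ptch1 than in GNPs (median -1.65) stand beside these results, with 4 of 8 choroid plexus, 7 of 8 meningeal and 9 of 10 endothelial markers lower and 8 of 11 microglia markers higher, and their part was not tested.

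Against MERP, 1 member was higher and 2 lower (8.2% and 5.15% of all genes), with a median log2 of -0.11 against -0.02. Kif3b was at 7.70, 7.67 and 7.48 in CRISPR-Ptch1, against 7.12, 7.20, 6.95, 7.15 and 7.18 in MERP, with no overlap (0.49, SE 0.12, adjusted p = 0.011). Of the 4 probe sets of Kif3b, only the one used here was called against MERP. Bbs2 was at 7.62, 7.55 and 8.15 in CRISPR-Ptch1, against 8.26, 8.29, 8.73, 8.39 and 9.01 in MERP, also with no overlap (-0.76, SE 0.21, adjusted p = 0.0223). Ofd1 differed by -0.52 (SE 0.16, adjusted p = 0.0365), with TF inside the MERP range. All 3 calls were lost without EP 1 or without EP 2, that of Ofd1 also without MERP 1, 2 or 3, and the lower count was 4 without TF and 1 without MERP 1 or MERP 3. Centring moved the differences by -0.20 and gave 0 higher and 9 lower. Markers higher in CRISPR-Ptch1 than in MERP were 10 of 11 of microglia, 6 of 7 of Purkinje cells, 6 of 12 of mature granule neurons, 4 of 10 of endothelial cells, 4 of 8 of meninges, 4 of 9 of oligodendrocytes and 3 of 10 of astrocytes. The control gap (0.19 to 0.23 in CRISPR-Ptch1 and 0.40 to 1.71 in MERP) did not overlap, and the part of either was not tested.

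With the probe sets used here, none of Ift88, Kif3a, Kif7, Gpr161, Tulp3, Inpp5e, Evc and Evc2 passed against GNPs or against MERP as deposited. After centring Kif7 was lower than in MERP (-0.56, adjusted p = 0.0324). Of the 4 probe sets of Kif3a, 2 not used here were called higher in CRISPR-Ptch1 than in GNPs, and 2 higher than in MERP. Of the 2 probe sets of Inpp5e, the one not used was called lower than in MERP. With the probe sets used, the log2 differences of these genes ran from -0.19 (Gpr161, SE 0.24) to 0.36 (Evc, SE 0.25) against GNPs. Against MERP they ran from -0.44 (Evc, SE 0.23) to 0.11 (Ift88, SE 0.12).

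The CRISPR-Ptch1 tumours were not alike in all members. TF was over 0.5 above the mean of EP 1 and EP 2 on the log2 scale for 9 members and over 0.5 below it for 1, while EP 1 and EP 2 were that far apart for 1. The share of all genes that far apart is not given here, so these counts are not read as particular to ciliary genes. Ift74, an IFT-B subunit that binds tubulin, was at 10.35 in TF against 9.29 and 9.05 in EP, Bbs7 at 8.57 against 7.46 and 7.59, and Kif3a at 9.75 against 8.93 and 8.72. Tulp3 (9.06 against 8.26 and 8.20) and Evc2 (8.73 against 7.92 and 7.88) were also higher in TF, and Ift46, another IFT-B subunit, was lower (9.69 against 10.42 and 10.33). These 6 were chosen after their values were seen. With 1 TF array there is no test, and route, Trp53 genotype and, if the methods rather than the label hold, strain cannot be told apart. Cell make-up differed too. Against EP 1 and EP 2, TF was at 8.14 for mature granule neurons (9.24 and 10.46) and 8.23 for Purkinje cells (9.22 and 10.76). For oligodendrocytes it was at 6.63 (8.04 and 8.20) and for choroid plexus at 8.35 (6.41 and 6.02). The part of cell make-up was not tested.

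Other genes of the primary cilium gave counts near those of the members. Of 47 such genes, those higher and lower than in adult cerebellum numbered 22 and 4 in CRISPR-Ptch1, 25 and 6 in MERP, 17 and 13 in Ptch1+/-, 23 and 5 in GTML and 22 and 5 in GNPs. Their median log2 difference was 0.45 in CRISPR-Ptch1, 0.44 in MERP, 0.07 in Ptch1+/-, 0.43 in GTML and 0.46 in GNPs. Against GTML the counts were 7 and 7 in CRISPR-Ptch1, 8 and 11 in MERP and 6 and 25 in Ptch1+/-, the last with a median of -0.49, and CRISPR-Ptch1 against Ptch1+/- gave 23 and 4 with a median of 0.47. Of 9 genes that disassemble the cilium or hold back its growth, 8 were higher than in adult cerebellum in CRISPR-Ptch1 and 7 in each of MERP, Ptch1+/-, GTML and GNPs, with none lower. Several of these genes also act in mitosis, and all 11 proliferation genes were higher in each of these groups.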

How the data were processed

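RNA from 23 mouse samples was measured on Affymetrix mouse expression arrays. The deposited log2 values were made by the authors with Affymetrix Expression Console 1.3.1 by RMA, and which arrays were normalized together is not given in the sources used here. Of 45101 probe sets, 34958 were annotated to 1 gene (34754 matched by Entrez identifier), 932 to several and 9211 to none. The single-gene probe set with the highest mean stood for each of 18194 genes, and 16 members had several. Calls by probe set came from a separate fit of the 34958 single-gene probe sets, adjusted over all of them, so they can differ from the calls by gene. For 1 of 176 pairs of such a member and a comparison, probe sets were called in opposite directions (Ift57, CRISPR-Ptch1 against Ptch1+/-). In other pairs some probe sets of a member were called and others were not, as for Evc, Gpr161, Tulp3, Kif3a, Kif3b and Bbs7.

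Contrasts were estimated in 1 fit of 6 groups by limma 3.58.1 (R 4.3.3), using lmFit, contrasts.fit and eBayes, with EP and TF pooled and Benjamini-Hochberg adjustment over all genes. The fit was tested on simulated data. Members and lists were chosen with earlier results of these data known, and lists were counted without a set test. Named in each comparison were the 5 called members with the highest and the 5 with the lowest log2 difference, and Ift88, Kif3a, Kif7, Gpr161, Tulp3, Inpp5e, Evc and Evc2. Of other lists, Foxj1, Enkur, Ttr, Mki67, Gli1 and Ptch1 could be named. Alternatives were centring each array on its median gene, the mean of a gene's probe sets, the probe set with the highest SD, a filter on dim genes (above 6.09 in at least 3 arrays), the 2 groups alone, the replicate number as a block, EP or TF alone, and leaving out each array. Promoters and gene positions came from RefSeq (GRCm38.p6).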

Additional observations from a re-analysis of the deposited data

Results flagged for a closer look

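Of 168 combinations of a member and a group of 4 or 5 arrays, 8 held 1 array far from the others of its group, and chance would give about 1 in 20. Ptch1+/- 1 had 3 of them. It was low for Ift88 (7.52, against 7.72 to 7.72 in the other 3) and high for Tctn3 (9.23, against 8.07 to 8.26) and Mks1 (8.23, against 7.55 to 7.63). MERP 5 was high for Ift88 (8.15, against 7.80 to 7.89) and for Evc2 (8.80, against 8.16 to 8.32). MERP 3 was low for Ift20 (8.86, against 9.23 to 9.34). GTML 3 was high for Ift57 (9.81, against 9.35 to 9.41). Adult cerebellum 1 was high for Ift172 (8.78, against 8.64 to 8.65). Without Ptch1+/- 1, the call of Tctn3 as higher in Ptch1+/- than in adult cerebellum was lost.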

How the results depend on the processing

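Of the 239 calls of members over the 11 comparisons, 191 held without each array in turn and 48 were lost without at least 1. Among called members, 2 changed sign under an alternative, Ift88 (-0.14) and Inpp5e (-0.004) in CRISPR-Ptch1 against Ptch1+/-, both on centring. Centring each array on its median gene gave 12 lower in GNPs and 2 lower in GTML against adult cerebellum, 4 higher and 23 lower in CRISPR-Ptch1 and 16 lower in MERP against GTML, 0 higher and 9 lower in CRISPR-Ptch1 against MERP, and 5 higher and 13 lower against Ptch1+/-. With TF alone, CRISPR-Ptch1 had 3 lower against adult cerebellum, 4 lower against GTML, 1 higher and 0 lower against GNPs, 0 and 0 against MERP and 0 lower against Ptch1+/-. With EP alone it had 1 higher and 4 lower against GNPs, 4 lower against MERP and 4 lower against Ptch1+/-. In fits of the 2 groups alone it had 4 lower against GTML, 1 higher against GNPs, 0 lower against MERP and 0 lower against Ptch1+/-. The probe set with the highest SD gave 1 higher against GNPs, 2 higher against MERP and 0 lower against Ptch1+/-. Leaving out 1 array gave, for CRISPR-Ptch1, 5 to 7 lower against adult cerebellum, 7 to 12 lower against GTML, 0 to 1 higher and 2 to 4 lower against GNPs, 0 to 1 higher and 0 to 4 lower against MERP and 1 to 4 lower against Ptch1+/-, and 5 to 9 lower for GTML against adult cerebellum and 6 to 10 lower for MERP against GTML. The cause was not tested for changes other than those that follow from fewer arrays. Replicate numbers are not stated to pair samples, and same-numbered samples of different groups deviated together no more than others (median r -0.00 over 46 pairs, -0.28 to 0.23, against -0.00 over 153 other pairs). With the replicate block, which leaves out TF, CRISPR-Ptch1 had 1 higher and 4 lower against GNPs, and the other counts stayed within 1.5 times. No detection calls are given, and 3 to 5 arrays a group limit what small differences can show.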
